A study of Drosophila melanogaster with 4 samples.

Results

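The odorant (Or), gustatory (Gr) and ionotropic (Ir) chemoreceptor genes of Drosophila melanogaster were examined in nuclear poly(A) RNA from heads. Members were the genes named Or, Gr or Ir followed by a number and a letter, plus the odorant co-receptor gene Orco. This gave 180 of the 17137 genes counted, 60 in each family when Orco is placed with the odorant receptors. Chemoreceptors are the proteins with which sensory neurons detect smells, tastes, humidity and temperature.

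Nuclei were purified by mini-INTACT, in which nuclei that carry a tagged nuclear envelope protein, UNC84, are pulled down. In the VAChT:VGlut genotype (VAChT:VGlut split-Gal4/UAS-UNC84) the tag was driven by a split Gal4 whose parts used the promoters of the vesicular acetylcholine and glutamate transporters. In the VAChT:VGAT genotype (VAChT:VGAT split-Gal4/UAS-UNC84) they used those of the vesicular acetylcholine and GABA transporters. All flies were 10 days old and untreated, all carried VAChT as one driver and the UNC84 transgene, and each library was made from pooled frozen heads, with 2 libraries per genotype. The sex of the flies is not given, and nothing states that the 2 libraries of each genotype were collected independently. The p-values therefore measure the spread between these libraries, which may be technical. No library of untagged nuclei was analysed here.

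Odorant receptors form ion channels with the shared subunit Orco in neurons of the antenna and the maxillary palp. Gustatory receptors sit mainly in taste neurons of the mouthparts and legs and detect sugars, bitter compounds, carbon dioxide and warmth. Ionotropic receptors are relatives of glutamate receptors, work with co-receptors such as Ir25a, Ir8a, Ir76b and Ir93a, and detect acids, amines, salts, humidity and temperature. The primary olfactory and taste neurons of the fly are largely cholinergic, and most receptor genes are used by few cells.

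The libraries held 1490390 to 2556988 counts, and 3 counts, the limit that a count of 0 allows, corresponded to 1.17 to 2.01 CPM, counts scaled to 1000000 per library. Such limits cover counting error only. The labels call the material neuronal nuclei, and genes of neurons and of other head cells were both abundant. The summed level of 5 pan-neuronal genes (elav, nSyb, brp, Syt1 and para) was 8487 and 8676 CPM in VAChT:VGlut and 7199 and 7279 CPM in VAChT:VGAT, while 6 fat body genes had 24068 and 23464 against 29641 and 29598 CPM. The 14 listed genes of the sensillum fluid and support cells summed to 1707 and 1639 CPM in VAChT:VGlut and 2657 and 2401 CPM in VAChT:VGAT, most of it from Obp19d and Obp56d. The 8 of them that were picked, after their values were seen, as specific to the antenna (lush, Obp28a, Obp69a, Obp83a, Obp83b, Os-C, a5 and a10) together had 14 and 23 reads in VAChT:VGlut against 22 and 12 in VAChT:VGAT, and none of these genes exceeded 8 reads in a library. This low ceiling depends on the choice of genes. Of those left out, Snmp1 had 32 and 42 against 40 and 18 reads, and Snmp2 36 and 60 against 59 and 44. Est-6 had 163 and 203 against 201 and 138, and Amt 2 and 3 against 0 and 0. In such bulk libraries fewer cells of a type and less RNA per cell cannot be told apart.

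Chemoreceptor transcripts were rare. Of the 180 genes, 90 (50%) had no read in any library, against 22.5% of 13179 protein-coding genes in the table. The share without a read was 35 of 60 odorant, 25 of 60 gustatory and 30 of 60 ionotropic receptors. A further 27 genes had 1 read in all, 35 had 2 to 4, 15 had 5 to 19 and 13 had 20 or more. Over the 4 libraries pooled, a count of 0 allows up to 0.375 CPM. Some zeros carry less information than others, because 8 members had under 25% of their exon bases to themselves on their strand and the counting command set no option to assign reads from shared bases. Of these 8, 6 had no read. Gr10a, Or10a, Gr64b and Gr64c had no exon base of their own, and Gr64d and Gr64e had 2.67% and 0.928%. Their zeros cannot be read as absence of transcript.

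**Figure D1:**
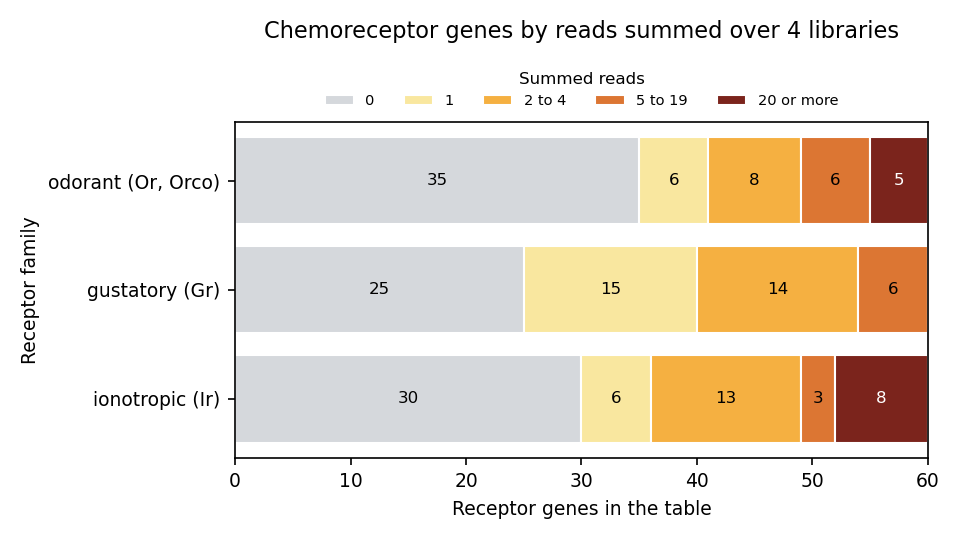
Number of receptor genes (x axis) in each family (rows), split by the reads summed over the 4 libraries (colours). Genes without a read number 35, 25 and 30 in the Or, Gr and Ir families, and genes with 20 or more reads number 5, 0 and 8.

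The number of receptor genes with a read was 51 and 61 in VAChT:VGlut against 50 and 39 in VAChT:VGAT, in the order of the library totals. After scaling to the smallest total, the expected numbers were 44.8, 47.5, 43.7 and 39.0. A read was found in all 4 libraries for 21 genes and in exactly 1 library for 32. The 1204 receptor reads made up 0.0150% of all counts, and 4 genes (Ir76a, Ir62a, Or63a and Or43b) held 536 of them, or 44.5%.

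The summed receptor level was close in the genotypes. It was 145 and 157 CPM in VAChT:VGlut and 151 and 146 CPM in VAChT:VGAT, so the groups overlapped. Levels by library or genotype are in CPM after TMM correction of the library totals. Limits of detection, values pooled over libraries, folds against a floor and CPM over all libraries use the uncorrected totals. Levels per kilobase of exon use the corrected totals. Without the 10 members that lie inside another gene on the same strand, chiefly Ir62a, the means fell from 151 to 132 CPM in VAChT:VGlut and from 148 to 124 CPM in VAChT:VGAT. Ionotropic receptors carried the largest part, with 75.6 and 87.4 CPM in VAChT:VGlut and 89.7 and 85.5 CPM in VAChT:VGAT. Gustatory receptors carried the smallest, with 10.5 and 18.2 against 17.8 and 17.2 CPM. In both families the genotypes overlapped.

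Odorant receptors had 59.1 and 51.8 CPM in VAChT:VGlut (exact Poisson 95% intervals 48.9 to 70.7 and 43.3 to 61.5) and 43.3 and 43.1 CPM in VAChT:VGAT (34.6 to 53.6 and 33.3 to 54.9). Both VAChT:VGlut libraries lay above both VAChT:VGAT libraries, with overlapping counting intervals. Without Or42a, described below, the values were 54.1 and 48.3 against 43.3 and 43.1 CPM.

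**Figure D2:**
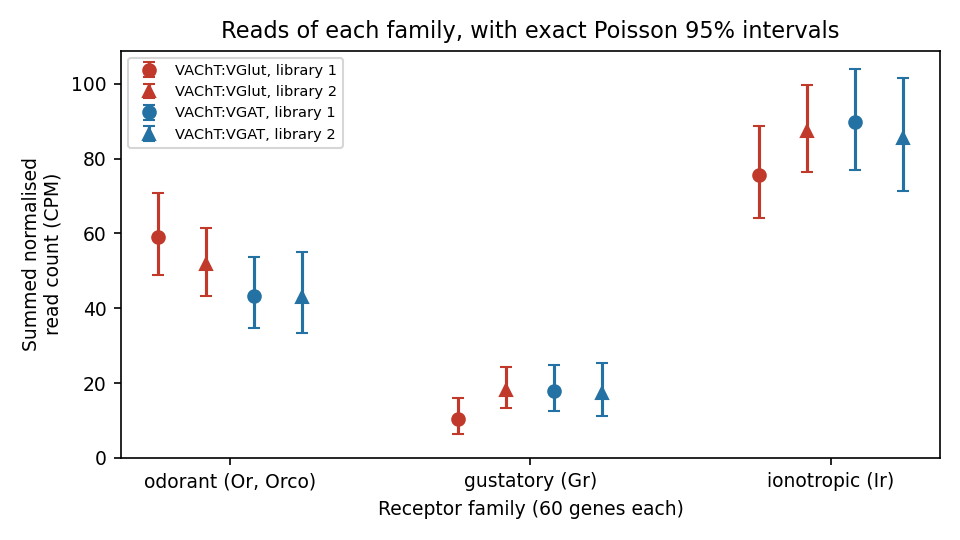
Summed normalised read count in CPM (y axis) of the 60 genes of each receptor family (x axis) in each library; bars are exact Poisson 95% intervals, which cover counting error alone. The odorant family is at 59.1 and 51.8 CPM in VAChT:VGlut and at 43.3 and 43.1 in VAChT:VGAT, and the ionotropic family lies between 75.6 and 89.7 in all libraries.

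Among the co-receptors, Ir25a, Ir76b, Ir93a and Orco were detected in every library and Ir8a was nearly absent. Orco (FBgn0037324; dm6 chromosome 3R, 5407183 to 5410469, minus strand), the shared subunit of the odorant receptor channels, had 11 and 13 reads in VAChT:VGlut and 12 and 8 in VAChT:VGAT, or 5.51 and 5.14 against 6.12 and 5.31 CPM. These values overlapped between the genotypes, and the log2 fold change (VAChT:VGlut over VAChT:VGAT) was -0.12 (SE 0.45, 95% interval -1.01 to 0.78, edgeR quasi-likelihood adjusted p = 0.925). Ir25a (FBgn0031634; 2L, 4830846 to 4835300, minus strand), the most widely shared ionotropic co-receptor, had 9 and 15 against 15 and 16 reads, or 4.50 and 5.94 against 7.64 and 10.6 CPM. Both VAChT:VGAT libraries were above both VAChT:VGlut libraries, and the difference did not pass the threshold (log2 fold change -0.75, SE 0.41, 95% interval -1.56 to 0.06, edgeR adjusted p = 0.272).

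Ir76b (FBgn0036937; 3L, 20108484 to 20111534, minus strand), a co-receptor of amine and taste receptors, had the most even level of these genes, with 7.51 and 7.91 CPM in VAChT:VGlut and 7.64 and 7.29 CPM in VAChT:VGAT (log2 fold change 0.05, 95% interval -0.73 to 0.82). Ir93a (FBgn0259215; 3R, 20851709 to 20859945, minus strand), a co-receptor of temperature and humidity sensing, had 10 and 7 against 10 and 8 reads, or 5.0 and 2.77 against 5.10 and 5.31 CPM. Both VAChT:VGAT libraries were above both VAChT:VGlut libraries, by less than the error of the difference (log2 fold change -0.46, 95% interval -1.45 to 0.54). Ir8a, the co-receptor of acid sensing, had 1 read, in a VAChT:VGAT library.

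The ionotropic receptors with the most reads were Ir76a and Ir62a. Ir76a (FBgn0260874; 3L, 19799278 to 19803427, plus strand), an amine receptor of antennal neurons, had 38 and 47 reads in VAChT:VGlut and 49 and 29 in VAChT:VGAT, or 19 and 18.6 against 25 and 19.2 CPM. Ir62a (FBgn0053971; 3L, 1529439 to 1531259, minus strand), a receptor needed for calcium taste, had 29 and 51 against 42 and 32 reads, or 14.5 and 20.2 against 21.4 and 21.2 CPM. In both genes the VAChT:VGAT libraries were above the VAChT:VGlut libraries, and the 95% interval of the difference included 0. The log2 fold changes were -0.26 (95% interval -0.73 to 0.22) for Ir76a and -0.27 (95% interval -0.77 to 0.22) for Ir62a. On the scale of CPM per kilobase of exon (RPKM), Ir62a had a level of 10.6 and Ir76a one of 9.70, above 67.2% and 65.8% of all genes in the table.

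The receptors of humidity and temperature differed in abundance. Ir68a, a receptor for moist air, had 12 and 25 reads in VAChT:VGlut and 16 and 16 in VAChT:VGAT, or 6.01 and 9.89 against 8.15 and 10.6 CPM, with overlapping groups (log2 fold change -0.18, 95% interval -0.92 to 0.56). Ir40a, a receptor for dry air, had 2 and 0 against 2 and 0 reads. Ir21a (FBgn0031209; 2L, 21823 to 25155, minus strand), a receptor for cooling, had 7 and 12 reads in VAChT:VGlut and 1 and 2 in VAChT:VGAT, or 3.50 and 4.75 against 0.510 and 1.33 CPM. Both VAChT:VGlut libraries were above both VAChT:VGAT libraries, and the ratio of the pooled CPM was 4.74 (exact 95% interval 1.40 to 25, counting error alone).

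Ir21a had too few reads for the main filter. When the 8813 genes with 20 or more reads in all were tested, its edgeR adjusted p was 0.0468 and it was the single receptor called of 13, against 11.1% of those genes (5.91% higher in VAChT:VGlut and 5.19% higher in VAChT:VGAT). Without a filter it was 0.0863. Ir21a reached 20 reads through VAChT:VGlut, which held 19 of its 22, so this call is a description and no support for a difference. It was lost when any 1 of the 4 libraries was left out over the same genes (adjusted p from 0.0664 to 0.395), with library size alone as the scaling (0.0533) and with the replicate number as a block (0.0582). Its neighbour Cda5, which ends 247 bases upstream on the same strand, had 210 ± 8.51 CPM in VAChT:VGlut and 191 ± 4.24 CPM in VAChT:VGAT (SD, n = 2; log2 fold change 0.13, edgeR adjusted p = 0.326).

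The acid receptor gene Ir75a (FBgn0036757; 3L, 17815570 to 17817921, minus strand) had unequal levels in the libraries of one genotype. It had 7 and 24 reads in VAChT:VGlut and 11 and 5 in VAChT:VGAT, or 3.50 and 9.50 against 5.61 and 3.32 CPM. The groups overlapped (log2 fold change 0.56, 95% interval -0.38 to 1.49), and the sign turned without the second VAChT:VGlut library (-0.38). Its tandem neighbour Ir75b, 152 bases upstream, had 18 reads in all and the next gene of the array, Ir75c, had none.

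Of 17 ionotropic receptors listed for the antenna, 15 had a read, Ir75c and Ir84a being the others. Their summed level was 55.1 and 63.7 CPM in VAChT:VGlut and 64.7 and 60.3 CPM in VAChT:VGAT, so the groups overlapped. This class was chosen with earlier results of these data known, and its level is a description.

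**Figure D3:**
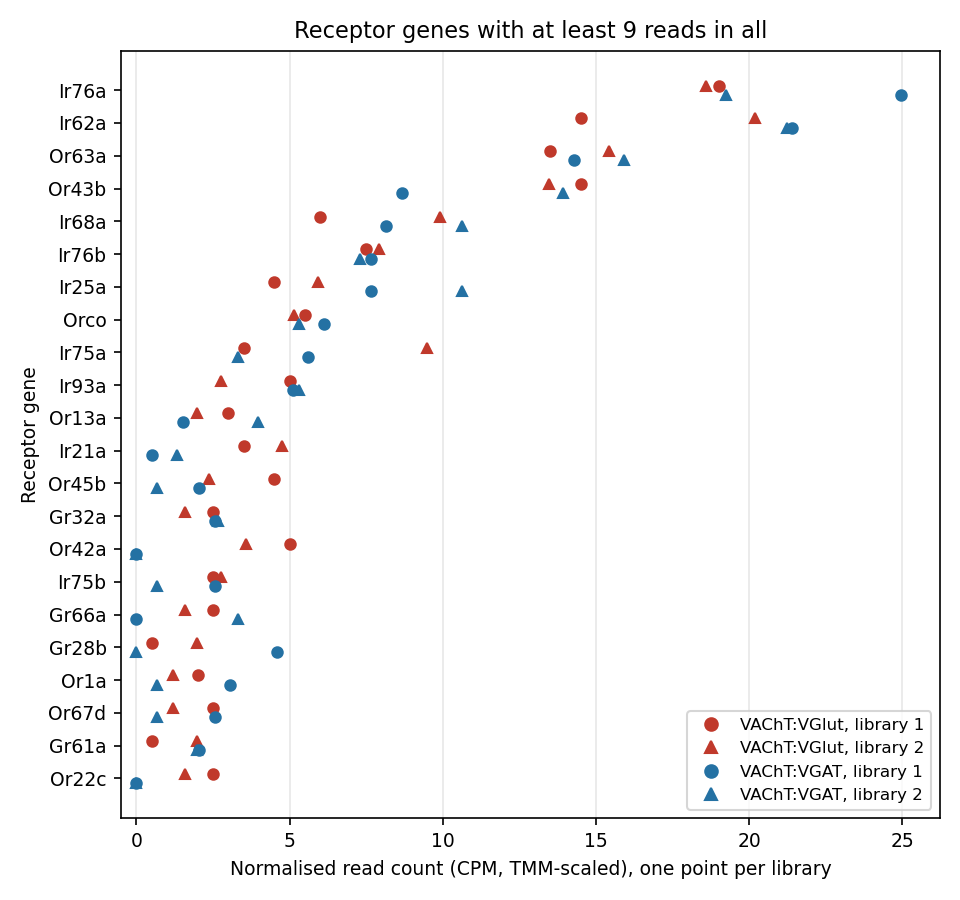
Normalised read count in CPM (x axis) of each receptor gene with at least 9 reads in all (rows), 1 point per library, coloured by genotype. Ir76a lies between 18.6 and 25 CPM in all 4 libraries, whereas Or42a and Or22c are at 0 in both VAChT:VGAT libraries.

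Among the odorant receptors, Or63a and Or43b had the most reads. Or63a (FBgn0035382; 3L, 2961534 to 2963788, plus strand), described as a larval receptor, had 27 and 39 reads in VAChT:VGlut and 28 and 24 in VAChT:VGAT, or 13.5 and 15.4 against 14.3 and 15.9 CPM (log2 fold change -0.04, 95% interval -0.60 to 0.52). Or43b (FBgn0026393; 2R, 7920835 to 7922604, minus strand), a receptor of antennal neurons, had 29 and 34 against 17 and 21 reads, or 14.5 and 13.5 against 8.66 and 13.9 CPM (log2 fold change 0.34, 95% interval -0.28 to 0.96). In both genes the genotypes overlapped. Their levels per exon length were 8.60 and 8.95 RPKM, close to those of Ir76a and Ir62a and above that of Orco (2.86).

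Or42a (FBgn0033041; 2R, 5791441 to 5792967, minus strand), a receptor of the maxillary palp and the larva, was seen in one genotype. It had 10 and 9 reads in the VAChT:VGlut libraries (5.0 and 3.56 CPM) and none in either VAChT:VGAT library. With 3 counts over both VAChT:VGAT libraries (0.875 CPM) as the floor, its observed level in VAChT:VGlut was at least 4.74-fold higher. Counting error in its own 19 reads lowers this bound, and the exact 95% interval of the ratio of reads began at 3.49. Or42a was under the main filter. In an edgeR quasi-likelihood fit of all 12002 genes with a read, its adjusted p was 0.00174 and it was the single receptor called of 90, against 8.06% of those genes (4.47% higher in VAChT:VGlut and 3.58% higher in VAChT:VGAT). Or42a entered this fit only through its 19 reads in VAChT:VGlut, so the call is a description and no support for a difference. Leaving out 1 library gave adjusted p-values from 0.0160 to 0.0651, and the call was lost without the first VAChT:VGlut library (0.0511) or without the first VAChT:VGAT library (0.0651).

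The other maxillary palp receptors did not share this level. Of the 7 listed, Or33c, Or46a, Or59c, Or85d and Or85e had no read in any library, and Or71a had 0 and 1 reads in VAChT:VGlut and 1 and 0 in VAChT:VGAT. Or71a lies inside the gene Plp on the same strand. The gene next to Or42a, Or42b, lies 4228 bases upstream of it in the same orientation and had 0 and 0 against 4 and 0 reads.

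Or22c, a larval receptor, had a pattern like that of Or42a with fewer reads. It had 5 and 4 reads in VAChT:VGlut and 0 in both VAChT:VGAT libraries. Its observed level in VAChT:VGlut was 2.25-fold the same floor, and the exact 95% interval of the ratio of reads began at 1.48. Or22c did not pass the threshold in the fit without a filter (edgeR adjusted p = 0.148). Or45b, also described as larval, had 9 and 6 against 4 and 1 reads (4.50 and 2.37 against 2.04 and 0.663 CPM), a ratio of 2.25 whose exact 95% interval, 0.776 to 7.90, includes equal levels. Both VAChT:VGlut libraries were above both VAChT:VGAT libraries.

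Some receptors with few reads were seen in one genotype alone. Of 50 receptors with 2 to 19 reads, 7 (Or42a, Or22c, Or67a, Or23a, Gr77a, Ir20a and Ir87a) had a read in both VAChT:VGlut libraries and none in VAChT:VGAT, which is 14%, against 7.79% of 2247 genes in this range of reads. The reverse held for 2 (Gr22e and Or94a), which is 4.0% against 4.94%. The VAChT:VGlut libraries held 57.2% of all counts, and outside Or42a and Or22c these patterns rest on 2 or 3 reads each.

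Or13a, Or67d and Or1a were lower and overlapped between the genotypes. Or13a, an antennal receptor, had 6 and 5 against 3 and 6 reads. Or67d, the receptor for the male pheromone cis-vaccenyl acetate, had 5 and 3 against 5 and 1, and Or1a, described as larval, had 4 and 3 against 6 and 1. Of the 6 pheromone receptors listed, Or47b, Or65a, Or65b and Or65c had no read and Or88a had 2. Of 13 receptors described as larval, 6 had a read, with a summed level of 23.0 and 20.6 CPM in VAChT:VGlut and 19.9 and 17.9 CPM in VAChT:VGAT, most of it from Or63a. Both VAChT:VGlut libraries were above both VAChT:VGAT libraries in this sum. Among its members, Or22c (5 and 4 against 0 and 0 reads) and Or45b had this order. Or63a, Or1a and Or59a overlapped between the genotypes, and Or94a had the reverse order. The order of the sum therefore rests on few reads. The exact Poisson 95% intervals of the sum overlapped (15.4 to 27.0 in the second VAChT:VGlut library, 14.1 to 27.2 in the first VAChT:VGAT library). VAChT:VGlut was also higher in the low antennal receptors Or7a (2 and 4 against 0 and 1 reads) and Or2a (2 and 3 against 1 and 0), on few reads. Among genes with 20 or more reads, 23.1% had VAChT:VGlut higher without overlap. Or7a and Or2a had fewer reads, a range for which this share was not taken.

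A read was found for 35 gustatory and 25 odorant receptors, but 15 and 6 of these had a single read. No Gr gene reached 20 reads, and none was tested. Gr32a, which detects bitter compounds and pheromones, was the highest with 5 and 4 reads in VAChT:VGlut and 5 and 4 in VAChT:VGAT. The bitter co-receptors Gr66a and Gr33a had 5 and 4 against 0 and 5 reads and 0 and 4 against 2 and 2 reads. Gr39a, another bitter receptor, had 1 and 2 against 0 and 1. These values overlapped between the genotypes, apart from Gr32a, whose normalised levels were 2.50 and 1.58 against 2.55 and 2.65 CPM.

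Sugar receptors were near the detection limit. Gr61a had 1 and 5 reads in VAChT:VGlut and 4 and 3 in VAChT:VGAT, Gr64a had 0 and 1 against 1 and 3, and Gr64f 0 and 1 against 1 and 1. Gr43a, the fructose receptor that is also used in the brain, had 0 and 2 against 1 and 0. Gr64b, Gr64c, Gr64d and Gr64e had no read and at most 2.67% of their exon bases to themselves, so they could hardly be counted. The sum of the 9 sugar receptors therefore rests on the other 5. It was 2 and 9 reads in VAChT:VGlut and 8 and 7 in VAChT:VGAT, or 1.0 and 3.56 against 4.08 and 4.64 CPM. In CPM both VAChT:VGAT libraries were above both VAChT:VGlut libraries in this sum and in Gr61a, Gr64a and Gr64f, none of which was tested. The exact Poisson 95% intervals of the sum overlapped (1.63 to 6.76 in the second VAChT:VGlut library, 1.76 to 8.03 in the first VAChT:VGAT library). For Gr64f, 1 read was 0.396 CPM in the second VAChT:VGlut library and 0.510 and 0.663 CPM in VAChT:VGAT, an order set by depth. Among genes with 20 or more reads, 25.4% had VAChT:VGAT higher without overlap. Gr61a, Gr64a and Gr64f had fewer reads, a range for which this share was not taken. Gr28b, which serves warmth sensing among other roles, had 1 and 5 against 9 and 0 reads, so its VAChT:VGAT libraries lay on either side of its VAChT:VGlut libraries. Of the pair that forms the carbon dioxide receptor, Gr21a had 0 and 1 against 2 and 1 reads and Gr63a had none.

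The comparison of the genotypes rests on the 10 receptors that passed the filter on low counts (Ir76a, Ir62a, Or63a, Or43b, Ir68a, Ir76b, Ir25a, Ir75a, Orco and Ir93a). None of the 10 passed an edgeR quasi-likelihood adjusted p of 0.05, against 11.8% of the 8246 genes tested (6.22% higher in VAChT:VGlut and 5.54% higher in VAChT:VGAT). Unadjusted, 0 of the 10 had a p under 0.05 with edgeR, and 0 with limma-voom, which also called none of them, against 11.6% of all genes (6.14% and 5.51% in the same order). DESeq2 gave none of the 10 an adjusted p, since its independent filtering set them aside, and 0 had an unadjusted p under 0.05. Among the 3130 genes to which it gave one, 11.8% passed (7.22% and 4.60%). The log2 fold changes were positive in 3 and negative in 7, with a median of -0.15, against -0.01 over all tested genes. In 4 of the 10 the libraries of the genotypes did not overlap, each with VAChT:VGAT higher, while 49.3% of all tested genes did not overlap in either direction. Over the 13 receptors with 20 or more reads, 2 (Or45b and Ir21a) lay without overlap above in VAChT:VGlut and 4 in VAChT:VGAT, against 23.1% and 25.4% of genes with as many reads. Standard errors of 0.24 to 0.50 on the log2 scale limit what these counts could show.

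**Figure D4:**
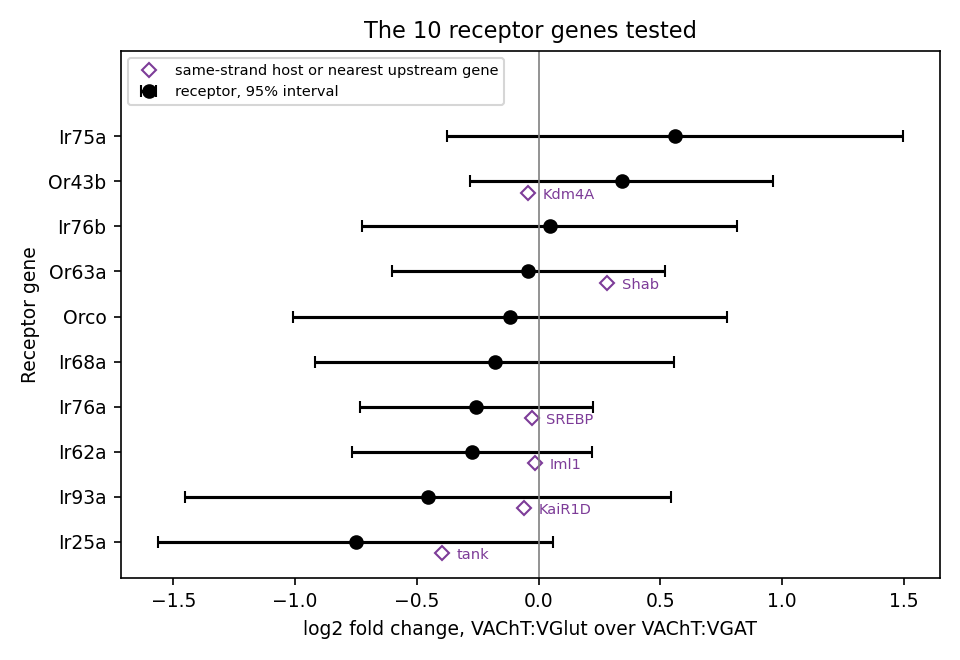
Log2 fold change of VAChT:VGlut over VAChT:VGAT (x axis) for the 10 receptor genes tested (rows), with 95% intervals from edgeR; open diamonds give the fold change of the same-strand host gene (Iml1 for Ir62a) or of the nearest upstream gene on the same strand, where that gene is no receptor and was tested. Every interval includes 0, and the fold changes run from -0.75 for Ir25a to 0.56 for Ir75a.

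Several of the receptors with the most reads lay close to, or inside, genes with many more reads on the same strand. Ir62a lies within the span of Iml1 and shares no exon base with it. Iml1, a subunit of a nutrient-sensing complex, had 230 ± 11.2 CPM in VAChT:VGlut and 231 ± 3.63 CPM in VAChT:VGAT (SD, n = 2). Ir76a starts 299 bases after the end of SREBP, a lipid synthesis regulator, which had 255 ± 11.3 and 261 ± 13.2 CPM (SD, n = 2). Or63a starts 1955 bases after the potassium channel gene Shab, which had 1005 ± 7.46 and 826 ± 6.64 CPM (SD, n = 2). Shab was called higher in VAChT:VGlut, with a log2 fold change of 0.28 (edgeR adjusted p = 1.77e-07), and the interval of Or63a (-0.60 to 0.52) included both 0 and that value. Ir25a lies 35 bases from tank, which had 23.3 ± 3.96 and 31.1 ± 0.0565 CPM (SD, n = 2; log2 fold change -0.40, edgeR adjusted p = 0.251). Ir93a follows the glutamate receptor gene KaiR1D by 242 bases (115 ± 5.30 and 120 ± 0.295 CPM; SD, n = 2). Orco, in contrast, has no same-strand gene within 14900 bases upstream, and the gene there, CG12147, had no read. Other tested receptors had near upstream genes with few reads. Over all libraries, lncRNA:CR44718, 282 bases from Ir68a, had 1.37 CPM. CG14187, 731 bases from Ir76b, had 0.250 CPM, and Ir75b, 152 bases from Ir75a, had 2.25 CPM.

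Across all members, 14 had a same-strand gene within 1000 bases upstream that had at least 10 CPM, and 12 of these 14 (85.7%) had a read, with a median of 6.5 reads. Of 48 members with an upstream gene as near but under 10 CPM, 20 (41.7%) had a read. Of 118 whose upstream gene lay farther, 22 of 43 (51.2%) had a read where that gene had at least 10 CPM and 36 of 75 (48.0%) where it had less. Members with 20 or more reads numbered 5 of the 14, 4 of the 48, 2 of the 43 and 2 of the 75. The distance and level were set after the data were seen and the shares are a description. The part that transcripts of neighbouring genes have in the receptor counts was not tested. Antisense overlap also occurred: Or43b lies opposite Cul1 (228 CPM over all libraries), and the counting used strand.

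**Figure D5:**
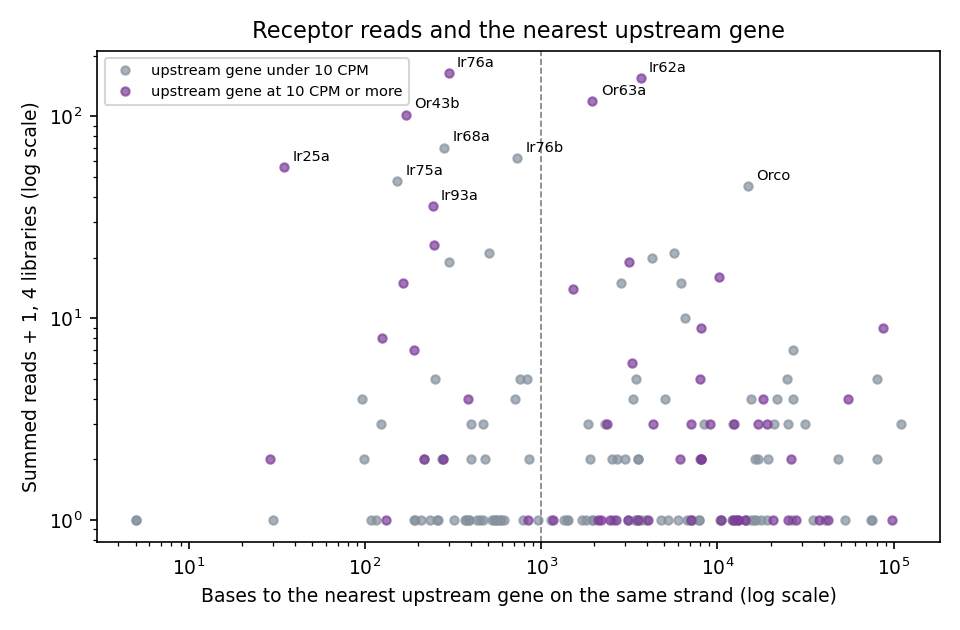
Reads summed over the 4 libraries plus 1 (y axis, log scale) of each receptor gene against the bases to the nearest upstream gene on the same strand (x axis, log scale); colour marks upstream genes with at least 10 CPM and the dashed line is at 1000 bases. Of the 14 receptors with such a gene within 1000 bases, 12 have a read, among them Ir76a, Or43b, Ir25a and Ir93a.

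Other genes of the chemosensory pathway were compared in the same fit. Of 14 genes of the sensillum fluid and support cells, 5 were tested and 2 changed, both lower in VAChT:VGlut, where 5.54% of all tested genes were called in that direction. These were the odorant-binding protein genes Obp19d (1022 ± 13.4 against 1536 ± 98 CPM, SD, n = 2; log2 fold change -0.59, edgeR adjusted p = 1.36e-20) and Obp56d (524 ± 40 against 841 ± 66.5 CPM, SD, n = 2; log2 fold change -0.70, edgeR adjusted p = 1.91e-18). Snmp1, one of the 5 and a membrane protein of pheromone-sensing neurons, had 16.3 ± 0.427 and 16.2 ± 5.97 CPM (SD, n = 2). It did not pass the test, and the list is thus not limited to genes of fluid and support cells. The median log2 fold change of the 5 was -0.49, against -0.01 over all tested genes.

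Of 6 transcription factors of chemosensory neurons, 4 were tested and 1 was higher in VAChT:VGlut, where 6.22% of all tested genes were called in that direction. This was pdm3, a POU-domain factor used in olfactory and other neurons (195 ± 18.9 against 155 ± 2.67 CPM, SD, n = 2; log2 fold change 0.32, edgeR adjusted p = 0.00585). Its partner in odorant receptor choice, acj6, had 50.1 ± 0.779 and 39.4 ± 2.41 CPM (SD, n = 2; log2 fold change 0.35, edgeR adjusted p = 0.179). Of 6 ppk and TRP channels of taste and heat sensing, 4 were tested, and of 10 cilium genes 5 were tested, with none past the threshold. Their medians were 0.11 and 0.18.

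Markers of other cells moved with genotype in the same fit. Higher in VAChT:VGlut were 8 of 9 photoreceptor genes (summed level 32493 and 32842 against 26334 and 26533 CPM), 5 of 6 muscle genes (991 and 1037 against 705 and 716 CPM) and 5 of 5 pan-neuronal genes. Higher in VAChT:VGAT were 5 of 6 fat body genes and 4 of 6 glial genes (1808 and 1723 against 2302 and 2309 CPM). The 5 fat body genes were the yolk protein genes Yp1, Yp2 and Yp3, with Lsp2 and fit, and the gene to was not called. The sex of the flies is not given, and its part in the levels of these genes was not tested. Of all tested genes, 6.22% were called higher in VAChT:VGlut and 5.54% higher in VAChT:VGAT. No marker on these lists was at 0. The median log2 fold change of the pan-neuronal genes was 0.25. The part of these shifts in the receptor, Obp19d, Obp56d and pdm3 values was not tested.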

How the data were processed

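Nuclear poly(A) RNA from heads was sequenced in 4 directional libraries, 2 per genotype, grouped by sample title. The authors deposited raw counts per gene, made with featureCounts 1.5.1 as reverse-strand read pairs over dm6 refGene exons in 1 run, per the file headers. The submitters' processing notes also name fastp, STAR and DESeq2. The deposited table gives exonic lengths in bases (another unit, per the file headers), used for reads per kilobase.

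The whole table was fitted with edgeR 4.0.16 (R 4.3.3; quasi-likelihood F test, genotype as the term, TMM factors 0.988 to 1.01). Genes passed filterByExpr (minimum count 10, minimum total 15), 8246 in all, p-values were adjusted by Benjamini-Hochberg and the threshold was 0.05. The common biological coefficient of variation, the estimated spread between libraries of a genotype beyond counting error, was 2.18%. The fit was tested on simulated data. DESeq2 1.42.0 and limma 3.58.1 were alternatives, as were other scalings, filters and fits without 1 library. Symbols of all 180 members were matched to Ensembl BDGP6 (dm6 coordinates), and their spans overlapped on the same strand. Near-identical receptors may lose reads that map to several places. Totals and limits of detection stand in the report.

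The members, classes and lists were chosen with earlier results of these data known. Named whatever their values were the co-receptors and the receptors for carbon dioxide, sugar, bitter taste, warmth and humidity. To these were added the 8 highest of each family, and members with at least 20 reads that differed at least 2-fold without overlap. Members of a class at 0, Or2a, Or7a, Or22c, Or42b, Or71a, Or88a, Ir75b, the neighbouring genes and those seen in 1 genotype were named after their values were seen, as were the pan-neuronal and antennal fluid lists chosen. Libraries with the same replicate number did not deviate together (correlation -0.03), and the numbers were not taken as pairs.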

Additional observations from a re-analysis of the deposited data

How the results depend on the processing

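The count of genes past the threshold, 970, was 370 with DESeq2, 46 in a test against a 1.5-fold change, 186 under a preset biological coefficient of variation of 0.1, 627 after the trend with exonic length was removed, and 513 to 738 without 1 library (513 without the second VAChT:VGlut library, 613 without the first VAChT:VGAT library); the cause was not tested. The count of receptors past it, 0 of 10, was 1 of 90 with no filter (Or42a), 1 of 13 at a summed count of at least 20 (Ir21a), where more genes are tested, and 0 to 1 without 1 library (Or42a, without the second VAChT:VGAT library). DESeq2 gave an adjusted p to 3130 genes and called 11.8% of them, the share that the main fit called of its 8246. It gave no adjusted p for a receptor and so no count of receptors. With the replicate number as a block, the fit called 1049 genes and 0 receptors. Summed receptor levels were 132 and 124 CPM without members nested on the same strand, and 145 to 157 (VAChT:VGlut) and 146 to 151 CPM (VAChT:VGAT) without 1 library. Receptors with no read numbered 92 to 102 without 1 library. Of 130 log2 fold changes recomputed for the 10 tested receptors, 124 kept their direction and stayed short of the threshold, and 6 turned sign. Of these 6, 5 came from fits without 1 library. In the test against a 1.5-fold change the direction could not turn, since it uses the fold changes of the main fit. Or63a was 0.0355 after the length trend was removed and -0.15 to 0.0442 without 1 library, Ir68a -0.61 to 0.10, Ir75a -0.38 to 1.04 and Or43b -7.1e-05 to 0.68. Depth limits every receptor value, since most rest on fewer than 20 reads.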
